A study of Homo sapiens with 21 samples.

Results

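The 44 genes described here are the cytosolic aminoacyl-tRNA synthetases and the transcription factors, enzymes, transporters and secreted proteins known as targets of ATF4 in the integrated stress response. They were taken by symbol from a list of names, and all 44 were found among the 58174 gene identifiers of the files. By role, 19 were cytosolic synthetases, 7 were stress transcription factors or cofactors, 6 were enzymes of amino acid synthesis, 4 were amino acid transporters, 4 act in feedback on translation and growth, and 4 were secreted factors or a receptor.

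RNA was sequenced from OCI-AML5, a human acute myeloid leukaemia cell line, in 7 groups of 3 libraries each. Cells for which the labels name no guide were kept in the solvent DMSO or in UM171, a small molecule agonist of haematopoietic stem cell self-renewal, for 6, 24, 48 or 72 h. OCI-AML5 cells carrying an sgRNA against EPCR (sgEPCR; EPCR is the protein C receptor, encoded by PROCR) were kept for 24 h in DMSO or in UM171. The labels give 500 nM UM171, where the study's legends that state a dose for RNA of this line give a lower one. The labels call the sgEPCR cells EPCR null clones without saying which clone or guide each library holds. The study speaks of 3 independent sgEPCR clones of this line. The only DMSO libraries of cells with no named guide are labelled 72 h, so that at 6, 24 and 48 h UM171 and culture time cannot be told apart, and the sgEPCR cells in DMSO differ from those controls in both genotype and labelled time. The cells with no named guide are compared with the sgEPCR cells and are called control cells, and the labels do not say whether they carry a control guide. The study's legends name cells with a guide called sgAAVS1 as the wild type beside sgEPCR. Whether the control libraries used here are those cells cannot be read from the labels. Nothing in the labels says that the 3 libraries of a control group came from separate cultures, so p-values measure the spread between these libraries only.

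The integrated stress response begins with 4 kinases, which sense amino acid shortage (GCN2, encoded by EIF2AK4), unfolded protein in the endoplasmic reticulum (PERK, EIF2AK3), double-stranded RNA (PKR, EIF2AK2) or haem shortage and mitochondrial stress (HRI, EIF2AK1). Each phosphorylates the translation factor eIF2, which lowers protein synthesis in general but lets the mRNA of the transcription factor ATF4 be translated. ATF4 then turns on genes that charge tRNAs with amino acids, make serine, glycine, proline and asparagine, and import amino acids. With prolonged stress, DDIT3 (CHOP), TRIB3 and CHAC1 follow, and PPP1R15A (GADD34) brings the phosphatase that removes the phosphate from eIF2. Because ATF4 is controlled largely by translation, its mRNA level is not a measure of its activity.

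Totals were 24286668 to 51540166 expected counts per library. Mitochondrial genes took 7.73 to 13.5% of counts in 19 libraries, but 35.9% in replicate 1 of the sgEPCR cells in DMSO and 32.2% in replicate 2 of those in UM171, and the counts of members in comparisons that use these 2 libraries are given with and without them. Without them each sgEPCR group holds only 2 libraries, which are close to each other. Their chi-square per degree of freedom was 4.69 in DMSO and 1.65 in UM171, against 514 to 717 for pairs with a left-out library. The p-values of fits without the 2 libraries therefore rest, for sgEPCR cells, on the small spread within these close pairs. Whether the paired libraries came from separate cultures is not given in the labels. PROCR, the edited gene, stood at 3.37, 4.30 and 3.38 TPM (a level scaled to transcript length and to a fixed sum per library) in DMSO and at 48.5, 48.5 and 48.5 TPM after 24 h of UM171. In sgEPCR cells it stood at 2.30, 4.53 and 3.93 TPM in DMSO and at 8.94, 4.23 and 8.41 TPM in UM171, which was lower than in the control cells in UM171 in every library. Myeloid markers were present: PTPRC was at or above 102 TPM and SPI1 at or above 95.7 TPM in every library, although MPO reached only 9.08 TPM. Among the markers of other cell types, CD3E, EPCAM, COL1A1 and ALB were at 0 in at least 1 library each and never above 1.31 TPM, and PECAM1, which myeloid cells also express, ranged from 5.45 to 46.0 TPM. In bulk RNA, fewer cells of a kind and less RNA per cell cannot be told apart.

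Before UM171, most members were well expressed. ATF4 had the highest level per length among the 44, at 292 ± 7.21 TPM (SD, n = 3 libraries) in DMSO, followed by TARS1, which charges threonine tRNA, at 244 TPM and NARS1, which charges asparagine tRNA, at 237 TPM. The synthetases ranged in DMSO from 48.5 TPM for FARSB to 244 TPM for TARS1. At the other end, NUPR1, a small stress-induced chromatin protein, had 0 to 5 counts in any library, and FGF21, a hormone of the fasting response, had 0 to 3. These 2 genes were too low to be tested, which left 42 members in each comparison. FGF21 counts were found only in 2 of the 72 h libraries, at 1 and 3 counts.

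**Figure D1:**
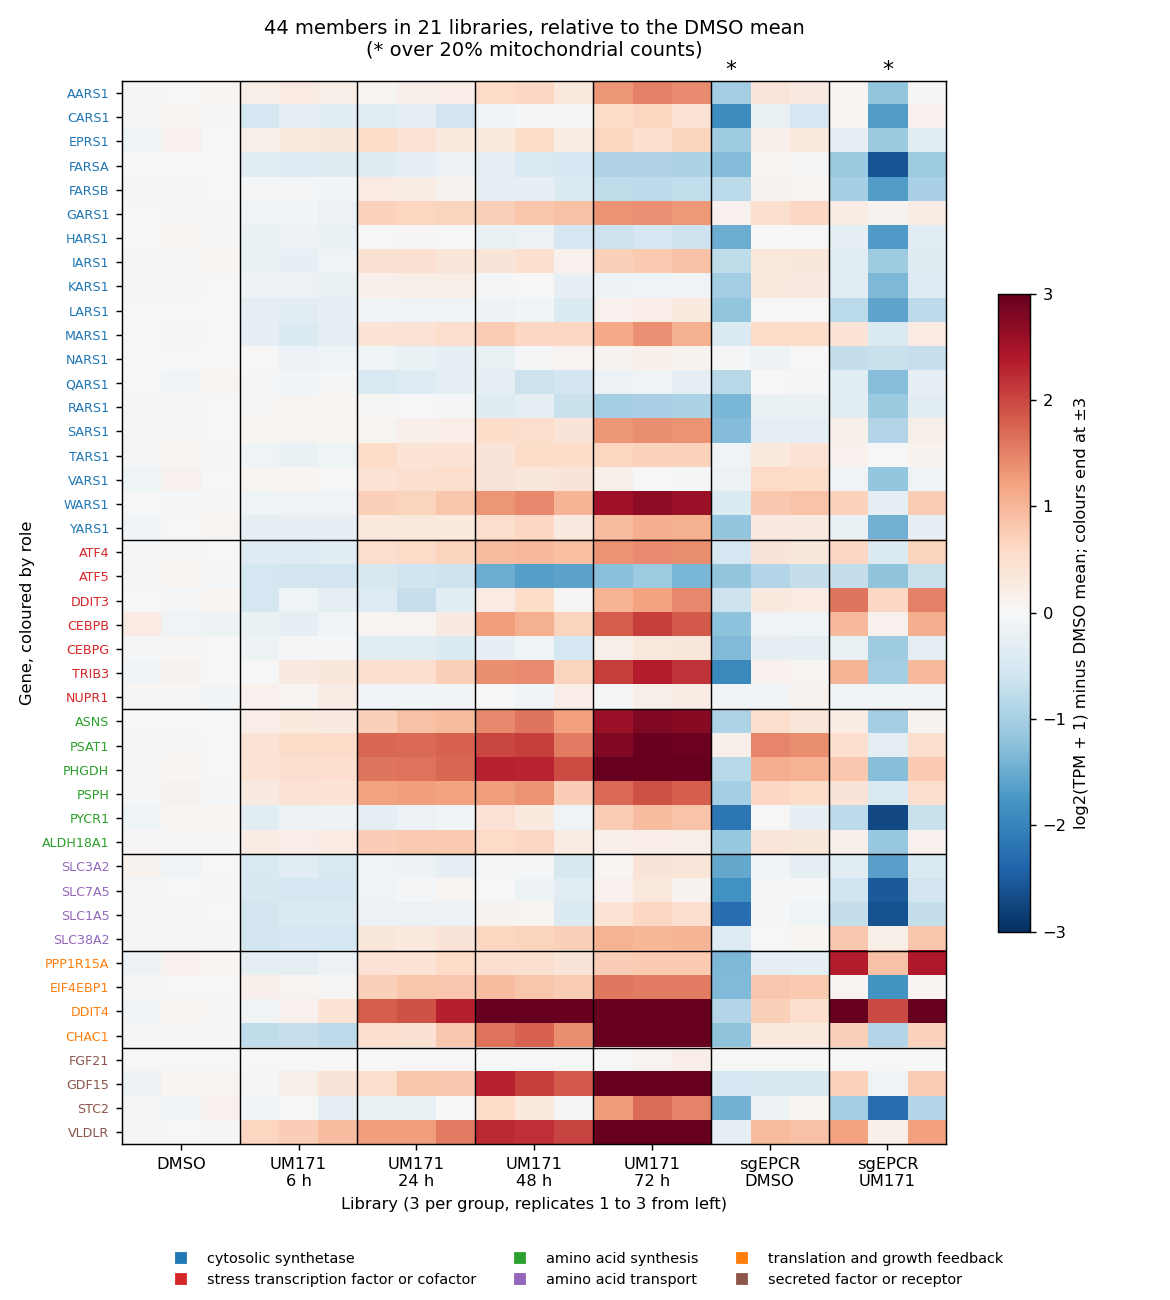
Heat map of all 44 members (rows, coloured by role) in the 21 libraries (columns, 3 per group), as log2(TPM + 1) minus the mean of the 3 DMSO libraries, with colours ending at ±3. The 72 h columns are the reddest for the serine pathway, DDIT4, CHAC1, GDF15 and VLDLR, while ATF5, FARSA, FARSB and RARS1 are blue there, and the 2 libraries marked with a star hold more mitochondrial counts.

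At 6 h of UM171, members were mostly lower than in DMSO. Of 42 members, 29 fell and 4 rose at an adjusted p under 0.05, against 30.3% of all 16575 tested genes that fell and 31.8% that rose. The fallen members were 69.0% of those tested. The median log2 fold change was -0.29 over the members and 0.02 over all genes. The 4 that rose were VLDLR, PSAT1, PSPH and PHGDH. Changes were small: CHAC1, which breaks down glutathione, was the only member past the stricter limits (a fold over 2 together with an adjusted p below 0.0001), which 7.03% of all genes passed.

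CHAC1 stood at 4.40, 4.05 and 4.40 TPM in DMSO and at 2.10, 2.29 and 2.04 TPM at 6 h, with no overlap. It fell by 1.27 on the log2 scale (SE 0.14, adjusted p = 5e-07). ATF4 itself went from 284, 299 and 292 TPM to 222, 223 and 234 TPM, every 6 h library being under every DMSO library, and fell by 0.53 (SE 0.05, adjusted p = 4.4e-08). The 4 amino acid transporters fell as well, by 0.58 for SLC3A2, 0.68 for SLC7A5, 0.64 for SLC1A5 and 0.66 for SLC38A2. SLC3A2 and SLC7A5 form the large neutral amino acid exchanger, SLC1A5 imports glutamine, and SLC38A2 is the sodium-coupled transporter SNAT2. The transcription factors ATF5, DDIT3, CEBPB and CEBPG fell by 0.74, 0.49, 0.37 and 0.25, and the feedback phosphatase subunit PPP1R15A by 0.44.

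Among the 19 synthetases, 16 fell at 6 h (84.2%, against 30.3% of all genes) and 3 did not pass. The largest falls were 0.52 for FARSA, a subunit of the phenylalanine enzyme, 0.47 for YARS1, which charges tyrosine, and 0.46 for LARS1, which charges leucine. AARS1, EPRS1 and VARS1 had log2 fold changes of 0.04, 0.09 and -0.12 and did not pass the test. The counts at 6 h depended on the scaling. TMM, the scaling used here, sets the bulk of genes to no change, and scaling by total counts moved the median of all genes to 0.20. With it, 18 members fell and 8 rose, where 2443 of all 16575 tested genes fell and 7427 rose. QARS1, RARS1, SARS1 and STC2, which had fallen by 0.18, 0.10, 0.12 and 0.11, then had values of 0.01, 0.08, 0.07 and 0.07. ATF4, CHAC1 and the 4 transporters stayed past the test with the same sign under that scaling.

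With longer exposure the direction turned. At 24 h, 26 members were higher and 10 lower, against 34.9% and 34.8% of all genes. At 48 h, 28 were higher and 10 lower, against 37.1% and 35% of all genes. At 72 h, the only time with DMSO libraries of the same labelled time, 33 were higher and 7 lower, or 78.6% and 16.7% of the members, against 38.8% and 36.8% of all genes. The median log2 fold change of the members was 0.36, 0.51 and 0.89 at the 3 times, and that of all genes stayed within 0.02 of 0. Members past the stricter limits numbered 5, 12 and 22, or 11.9, 28.6 and 52.4% of the members, where 13.7, 16.4 and 20.8% of all genes passed. All 4 times were compared with the same 3 DMSO libraries, so the counts at the 4 times are not independent.

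After 24, 48 and 72 h, ATF4 mRNA was up by 0.54, 0.96 and 1.31 (SE 0.05 at each), which is 2.48-fold at 72 h. Its level went from 423, 434 and 462 TPM at 24 h to 566, 576 and 543 TPM at 48 h and 748, 783 and 773 TPM at 72 h. DDIT3, a transcription factor tied to cell death under prolonged stress, had 9.64, 9.26 and 10.1 TPM in DMSO, 7.09, 5.60 and 7.38 TPM at 24 h and 21.1, 23.6 and 28 TPM at 72 h. It thus lay under the DMSO range at 24 h and above it at 72 h, with a fall of 0.60 (SE 0.13) and a rise of 1.19 (SE 0.11, adjusted p = 4.6e-08). DDIT3 shares 355 exonic bases, 27.2% of its own, with MARS1 on the opposite strand. The libraries are labelled stranded, but whether the authors counted by strand is not given in the sources used here, so reads of both genes may not be separated. MARS1 was higher by 0.57 at 24 h and by 1.19 at 72 h.

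CEBPB, a partner of ATF4 on DNA, rose by 1.07 at 48 h and 1.90 at 72 h (SE 0.11 at both), reaching 58.9, 71.3 and 60.8 TPM from 19.3, 14.96 and 14.5 TPM. TRIB3, a pseudokinase that binds ATF4 and DDIT3, rose by 0.57, 1.28 and 2.24 at 24, 48 and 72 h. CEBPG, another partner, was lower by 0.38 and 0.28 at 24 and 48 h and higher by 0.20 at 72 h. ATF5 was lower than in DMSO at every time. It had 39.2, 42.5 and 39.7 TPM in DMSO, 13.7, 12.2 and 12.7 TPM at 48 h and 16.4, 18.4 and 14.9 TPM at 72 h, falling by 0.60, 1.61 and 1.35 at 24, 48 and 72 h (SE 0.07 at each). ATF5 is itself a bZIP factor whose mRNA is translated under stress, and 19.5% of its exonic bases lie opposite exons of NUP62.

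**Figure D2:**
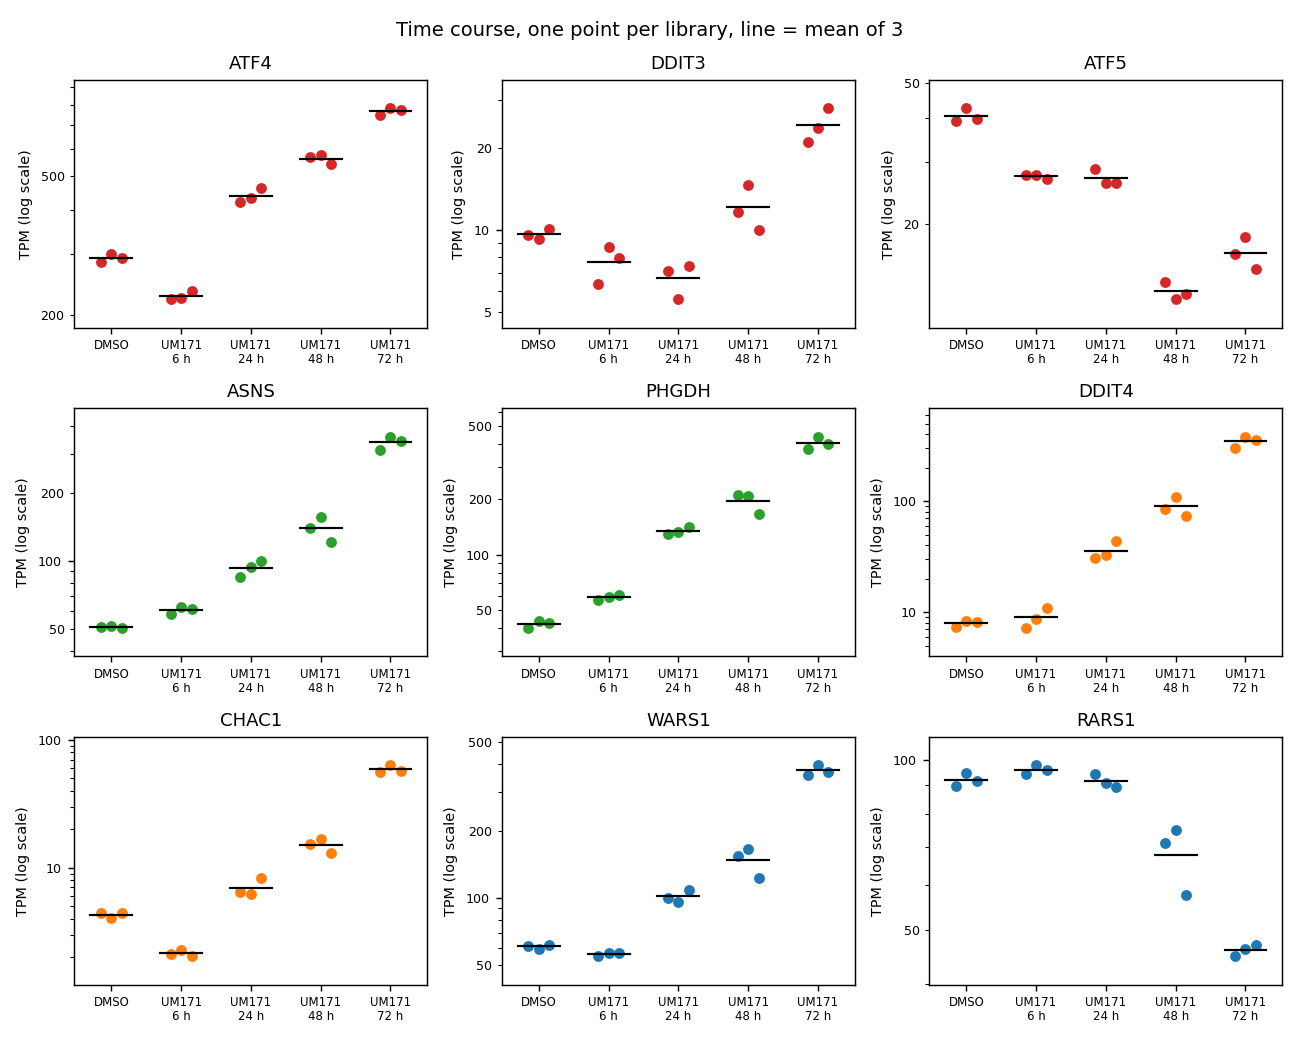
TPM (log axis) of 9 members in the 3 libraries of DMSO and of each UM171 time, with 1 point per library and a line at the mean. ATF4 and CHAC1 dip at 6 h before they rise, ASNS, PHGDH, DDIT4 and WARS1 climb to 72 h, and ATF5 and RARS1 end below DMSO.

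Of the 6 enzymes of amino acid synthesis, 3 were higher and 1 lower at 6 h, 5 were higher and 1 lower at 24 h, and all 6 were higher at 48 and 72 h. Of all genes, 31.8% were higher and 30.3% lower at 6 h, and 34.9% and 34.8% at 24 h. At 48 h these shares were 37.1% and 35%, and at 72 h 38.8% and 36.8%. PHGDH, PSAT1 and PSPH, the 3 successive steps from a glycolytic intermediate to serine, were higher already at 6 h, by 0.31, 0.38 and 0.35. At 72 h they had risen by 3.20, 2.85 and 1.77 (SE 0.05, 0.06 and 0.08), or 9.16-fold, 7.23-fold and 3.40-fold. PHGDH stood at 40.3, 43.6 and 42.6 TPM in DMSO, 129.6, 133 and 141 TPM at 24 h, 211, 209 and 166 TPM at 48 h and 378, 438 and 401 TPM at 72 h. No library of any of these times overlapped with DMSO. ASNS, which makes asparagine from aspartate and glutamine and is a classical reporter of ATF4, had 50.8, 51.6 and 50.7 TPM in DMSO, 85.0, 94.2 and 99.7 TPM at 24 h and 313, 356 and 343 TPM at 72 h. It rose 1.76-fold at 24 h and 5.92-fold at 72 h, where its log2 fold change was 2.57 (SE 0.06, adjusted p = 3e-16). At 6 h its log2 fold change was -0.00 with TMM and 0.18 with total counts, the latter with an adjusted p of 0.032. The enzymes of the proline branch were less uniform. ALDH18A1 was highest at 24 h, at 0.73, and only 0.11 at 72 h, and PYCR1 went from -0.21 at 24 h to 0.80 at 72 h.

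Of the transporters, SLC38A2 rose by 0.43, 0.77 and 1.04 at 24, 48 and 72 h, to 237, 230.0 and 232 TPM from 117, 109.7 and 117 TPM. The exchanger subunits changed little at 72 h. SLC3A2 rose by 0.22 (adjusted p = 0.015) and SLC7A5 had a log2 fold change of 0.13, with a 95% interval of 0.01 to 0.25 and an adjusted p of 0.057. SLC1A5 rose by 0.44. Each of the 4 had fallen by over 0.5 at 6 h.

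The largest changes were in feedback and secreted genes. DDIT4 (REDD1), which restrains mTORC1, stood at 7.34, 8.40 and 8.19 TPM in DMSO and at 30.4, 32.5 and 43.8, then 85.3, 109.6 and 74.1, then 301, 380.1 and 355 TPM at 24, 48 and 72 h. It rose 41.8-fold by 72 h, a log2 fold change of 5.39 (SE 0.14, adjusted p = 2.8e-15). GDF15, a stress cytokine, rose from 8 to 13 counts per library in DMSO to 671 to 938 counts at 72 h, a log2 fold change of 6.14 (SE 0.21), the largest of the 42, although its level of 31.1 ± 5.29 TPM (SD, n = 3) was still well under that of DDIT4. CHAC1, lower at 6 h, reached 56.0, 63.2 and 57.0 TPM at 72 h, 12.9-fold above DMSO. EIF4EBP1, a repressor of cap-dependent translation that mTORC1 holds in check, rose by 0.76, 0.87 and 1.48 at 24, 48 and 72 h. PPP1R15A rose by 0.72 at 72 h. The VLDL receptor gene VLDLR rose by 0.74, 1.53, 2.44 and 3.42 at 6, 24, 48 and 72 h. STC2, a secreted glycoprotein, was lower by 0.11 and 0.10 at 6 and 24 h and higher by 0.43 and 1.65 at 48 and 72 h.

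The synthetases did not move as 1 group. At 72 h, 12 of 19 were higher, 6 were lower and NARS1, at 0.02 with a 95% interval of -0.06 to 0.11, was neither. The higher share, 63.2%, stood against 38.8% of all genes, and the lower share, 31.6%, was near the 36.8% of all genes. WARS1, which charges tryptophan, rose most. Its level was 61.2, 59.1 and 61.9 TPM in DMSO, 99.97, 96.4 and 109 TPM at 24 h, 154, 166 and 124 TPM at 48 h and 358, 394 and 369 TPM at 72 h, a rise of 2.58 on the log2 scale (SE 0.05, adjusted p = 5.4e-17). WARS1 is also induced by interferon gamma in many cells. AARS1, SARS1, GARS1 and MARS1, for alanine, serine, glycine and methionine, rose by 1.37, 1.31, 1.29 and 1.19. YARS1, IARS1, CARS1, TARS1 and EPRS1, for tyrosine, isoleucine, cysteine, threonine and for glutamate with proline, rose by 0.98, 0.75, 0.61, 0.58 and 0.55. LARS1 and VARS1, for leucine and valine, rose by 0.30 and 0.17.

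The 6 that were lower were RARS1, FARSA, FARSB, HARS1, QARS1 and KARS1, for arginine, phenylalanine (2 subunits), histidine, glutamine and lysine. RARS1 stood at 89.96, 94.7 and 91.8 TPM in DMSO and 44.9, 46.2 and 47.0 TPM at 72 h, a fall of 1.07 (SE 0.04, adjusted p = 1.9e-13). FARSA went from 203, 206 and 202 TPM to 108, 109 and 104 TPM and FARSB from 49.4, 47.0 and 49.1 TPM to 28, 27.6 and 28.9 TPM, falls of 1.00 and 0.86. Both subunits of the phenylalanine enzyme thus lay below every DMSO library. HARS1, QARS1 and KARS1 fell by 0.64, 0.25 and 0.22. RARS1, QARS1 and KARS1 are held in the multisynthetase complex together with EPRS1, IARS1, LARS1 and MARS1, which were higher at 72 h, so enzymes of 1 complex were found on both sides.

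At 24 h, 12 synthetases were higher and 4 lower (CARS1, FARSA, NARS1 and QARS1), or 63.2 and 21.1%, where 34.9% and 34.8% of all genes were. At 48 h, 10 were higher and 7 lower, or 52.6 and 36.8%, and the share of lower synthetases was near the 35% of all genes. At 72 h the shares were 63.2 and 31.6%, against 38.8% and 36.8%, the lower share again being near that of all genes. VARS1 had its highest log2 fold change at 24 h, at 0.77, whereas AARS1 and SARS1, at 0.15 and 0.12 then, rose mainly between 24 and 72 h. The summed level of the 19 genes was 2423, 2485 and 2474 TPM in DMSO, 2243, 2215 and 2250.3 TPM at 6 h and 3627, 3838 and 3697 TPM at 72 h.

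**Figure D3:**
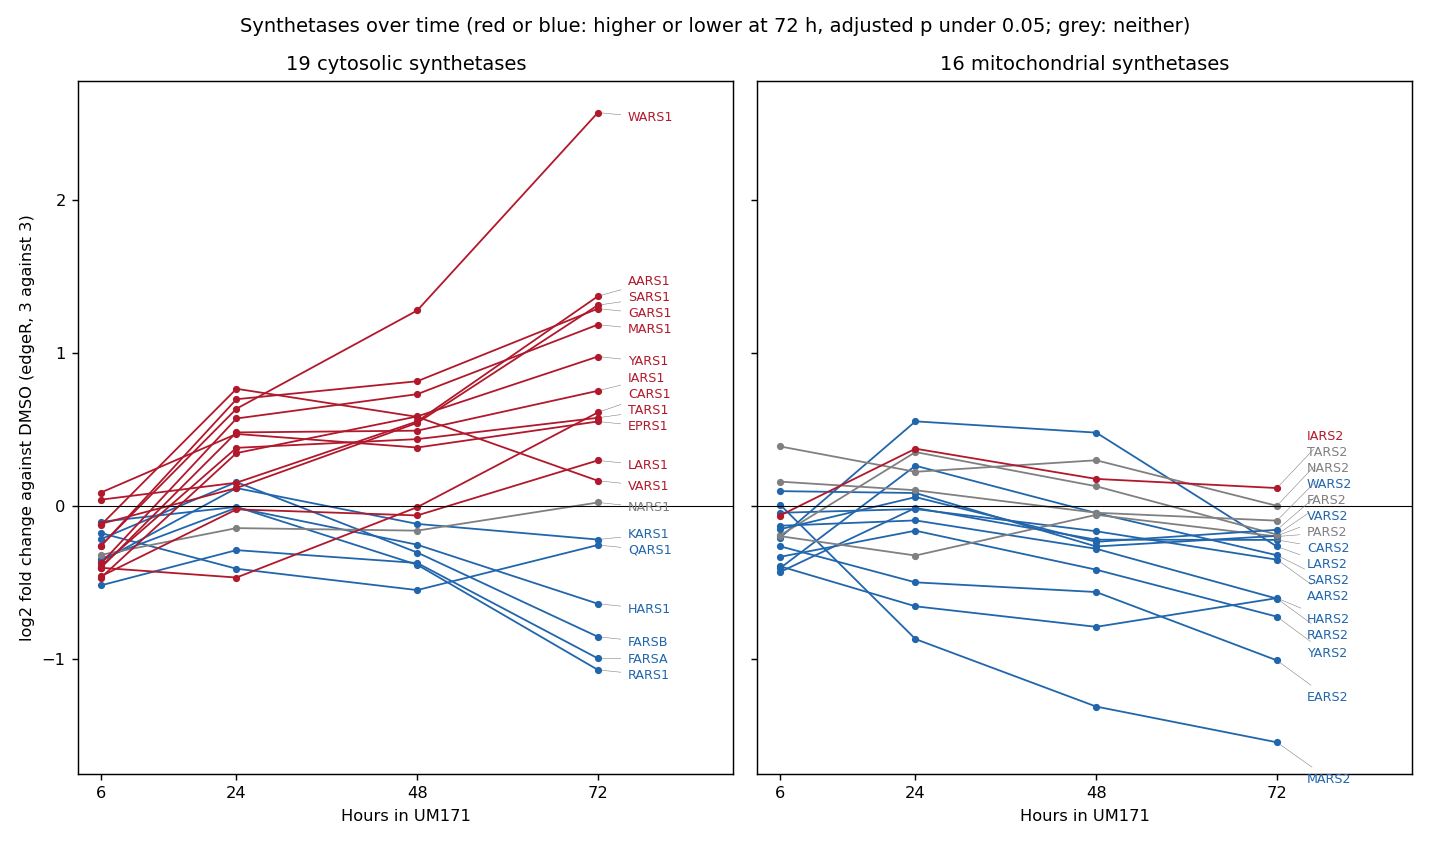
Log2 fold change against DMSO (vertical axis, edgeR, 3 libraries against 3) over hours in UM171 for the 19 cytosolic synthetases and 16 of the 17 mitochondrial synthetases, with 1 line per gene, red or blue where the gene was higher or lower at 72 h at an adjusted p under 0.05. The cytosolic genes fan out to between -1.07 and 2.58 at 72 h, and the mitochondrial ones end between -1.55 and 0.12.

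The 17 synthetases that serve mitochondria, encoded by separate genes, were read beside them. At 72 h, 1 was higher, IARS2 by 0.12, and 11 were lower, led by MARS2 at -1.55 (SE 0.07, adjusted p = 4.7e-12). These were 5.88 and 64.7%, against 38.8% and 36.8% of all genes. The median log2 fold change was -0.22, against 0.55 for the cytosolic 19 and 0.02 for all genes. At 6 h, 2 were higher, TARS2 most at 0.39, and 7 were lower, CARS2 most at -0.43. These were 11.8 and 41.2%, against 31.8% and 30.3% of all genes. For the same amino acid the pair could part: MARS1 rose by 1.19 where MARS2 fell by 1.55, and SARS1 rose by 1.31 where SARS2 fell by 0.32. These differences between genes were not tested. The scaffold proteins of the multisynthetase complex, AIMP1, AIMP2 and EEF1E1, were lower at 72 h, by 0.79, 0.87 and 0.23. At 6 h AIMP1 and AIMP2 were lower, by 0.28 and 0.18.

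ATF4 binds DNA together with C/EBP factors at a composite element with the letters TGATGNAA, also called an amino acid response element. These letters join part of a C/EBP site to part of an ATF site, so they overlap with the motifs of both families. They were searched on both strands from 250 bases before to 50 bases after the gene start in RefSeq's promoters (GRCh38.p14), where 37 of the 44 members matched an entry. The letters, or their reverse complement TTNCATCA, were found in 10 of the 37 (27.0%), in 3.67% of all 27305 promoters and in 1.89% of the 11349 promoters of genes tested in the time course. The 10 are shown because they tie the element to named members, with each stretch read along the gene's strand from 5′ to 3′ and the element in capitals.
AARS1: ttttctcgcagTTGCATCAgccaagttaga
CARS1: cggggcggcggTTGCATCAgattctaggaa
IARS1: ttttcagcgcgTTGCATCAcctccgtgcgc
MARS1: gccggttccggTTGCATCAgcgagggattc
NARS1: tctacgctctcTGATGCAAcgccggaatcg
TARS1: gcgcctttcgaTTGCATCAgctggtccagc
ASNS: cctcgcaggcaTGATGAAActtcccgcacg
CHAC1: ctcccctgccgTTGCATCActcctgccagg
SLC3A2: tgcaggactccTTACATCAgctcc
FGF21: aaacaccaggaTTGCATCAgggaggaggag

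The stretches lie at chr16:70289675-70289704 (AARS1, minus strand), chr11:3057407-3057436 (CARS1, minus), chr9:92293692-92293721 (IARS1, minus), chr12:57488053-57488082 (MARS1, plus), chr18:57621804-57621833 (NARS1, minus) and chr5:33440956-33440985 (TARS1, plus). Those of the other members lie at chr7:97872458-97872487 (ASNS, minus), chr15:40953251-40953280 (CHAC1, plus), chr11:62881725-62881748 (SLC3A2, plus) and chr19:48755459-48755488 (FGF21, plus). In 8 of the 10 the core is TTGCATCA or its complement TGATGCAA, and ASNS and SLC3A2 differ from it in the free position. Among synthetases with a promoter entry, the letters stood in 5 of 9 that were higher at 72 h (AARS1, CARS1, IARS1, MARS1 and TARS1) and in 0 of 6 that were lower, and NARS1, which was neither, also held them. WARS1, the synthetase with the largest rise, did not hold these letters in this window. Of the members other than synthetases, 4 of 21 held them. A match is a description of letters and not a binding site, and no test was made of these shares.

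Other genes of the pathway, from lists of genes that are not members, were read in the same way. Of 17 tested further ATF4 targets, 16 were higher at 72 h and 1 lower, or 94.1 and 5.88%, against 38.8% and 36.8% of all genes. Their median log2 fold change was 1.25. CTH, which makes cysteine from cystathionine, rose most, by 3.78 (SE 0.09, adjusted p = 5.6e-16), and AKNA was the one that fell, by 0.27. At 6 h, 10 of the 17 fell, KLHL24 most by 0.52, and 3 rose, CTH most by 0.54. These were 58.8 and 17.6%, against 30.3% and 31.8% of all genes. Among the kinases, mRNA of GCN2 (EIF2AK4) was higher at every time, by 0.33, 0.88, 0.71 and 0.56, and so was that of PKR (EIF2AK2), by 0.68, 0.91, 0.76 and 0.34, and of PERK (EIF2AK3), by 0.21, 0.27, 0.64 and 0.20. These are mRNA levels and say nothing of kinase activity. Of the 14 genes for eIF2 kinases, eIF2 and its exchange factor eIF2B, 5 were higher and 8 lower at 72 h. These were 35.7 and 57.1%, against 38.8% and 36.8% of all genes. EIF2S3 was at 0.59 and EIF2B4 at -1.06, and at 6 h EIF2B4 was the lowest too, at -0.62.

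Genes of the XBP1 and ATF6 branches of the unfolded protein response, among them chaperones of the endoplasmic reticulum, were read as well. Of 14, 11 were higher and 2 lower at 24 h, and 12 were higher and 1 lower at 48 h. The higher ones were 78.6 and 85.7%, against 34.9% and 37.1% of all genes. At 72 h, 7 were higher and 5 lower, or 50 and 35.7%, against 38.8% and 36.8% of all genes, which is near the share of all genes in the lower direction. No test compared this list with the members. HERPUD1 was highest at 72 h, at 0.86, and CALR lowest, at -0.75. At 6 h HERPUD1 was at 0.11 and DNAJB9 at -0.49. HSPA5 (BiP), the central chaperone, was at 0.76 at 48 h and at -0.27 at 72 h, while ATF4 rose from 0.96 to 1.31 between these times. Myeloid markers moved over the same libraries, with CSF2RB at 0.41 and CEBPA at -0.68 at 6 h and LYZ at 1.19 and SPI1 at -1.002 at 72 h. The summed level of the 8 myeloid markers was 1534 to 1626 TPM in DMSO and 2268 to 2467 TPM at 72 h, and that of the 6 markers of other cell types 42.4 to 46.4 and 41.7 to 42.5 TPM. LYZ, which alone ranged from 357 to 1814 TPM over all libraries, weighs heavily in the first sum. At 72 h, 3 of the 8 were higher and 4 lower (37.5 and 50%, against 38.8% and 36.8% of all genes), with a median log2 fold change of -0.02. EPCAM at 6 h and COL1A1 at 72 h passed the test upwards, at 2.69 and 5.06, from levels never above 1.31 TPM, and PECAM1 was lower by 0.12, 1.60, 1.35 and 0.23 at 6, 24, 48 and 72 h. The part of cell state in the members' changes was not tested.

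The sgEPCR cells were used to ask how the response to UM171 differs between the genotypes. In sgEPCR cells in DMSO against control cells in DMSO, 20 members were higher and 2 lower, against 17.4% and 16.3% of the 15901 tested genes. The stricter limits were passed by PSAT1 and VLDLR, at 1.53 (SE 0.07) and 1.204 (SE 0.11), and by 2.84% of all genes. PSAT1 stood at 66.2, 166 and 157 TPM in sgEPCR cells in DMSO, where the first library is the one rich in mitochondrial counts, against 56.9, 60.7 and 60.1 TPM in control cells. PHGDH, WARS1, GARS1, PSPH, ATF4 and ASNS were higher by 0.97, 0.91, 0.75, 0.62, 0.56 and 0.47, and CARS1 and GDF15 were lower. ASNS was at -0.01 with limma on log2(TPM + 1) on all libraries and higher by 0.53 (adjusted p = 3.3e-06) with edgeR without the 2 libraries rich in mitochondrial counts. Without those 2 libraries, 28 members were higher and 6 lower, against 4958 and 4910 of 16360 genes. Leaving out DMSO replicate 1, 2 or 3 left 13, 12 and 12 members higher, and leaving out replicate 3 of the sgEPCR cells in DMSO left 13. With total count scaling on all libraries, 4 were higher and 2 lower, against 1081 and 2944 of 15901 genes. With limma on log2(TPM + 1) on all libraries ATF5 alone passed, downwards, where 193 of all genes were higher and 1288 lower. With limma and without the 2 libraries, a fit added after the data were seen, 20 were higher and 7 lower, against 3226 and 5058 of 16360 genes.

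Under UM171, more members fell than rose in sgEPCR cells. Against sgEPCR cells in DMSO, 24 of 42 were lower and 6 higher after 24 h, against 25.1% and 27% of all genes. The stricter limits were passed by 10 members, 23.8%, and by 10.3% of all genes. The 6 that rose were GDF15, DDIT4, PPP1R15A, DDIT3, CEBPB and SLC38A2. Of the 19 synthetases, 17 fell (89.5%), by up to 1.41 for FARSA and 1.31 for FARSB, and CARS1 and SARS1, at 0.14 and 0.16, did not pass. Leaving out the 2 libraries rich in mitochondrial counts left 2 close libraries in each sgEPCR group. Both genes then rose, CARS1 by 0.22 (adjusted p = 0.00013) and SARS1 by 0.24 (adjusted p = 0.00019). In the same fit, 29 members were lower and 9 higher, against 5959 and 5652 of 16360 genes. With total count scaling on all libraries 9 were lower and 6 higher, against 1956 and 4384 of 15901 genes. With limma on log2(TPM + 1) on all libraries 2 were lower and 6 higher, against 557 and 2639 genes. Limma without the 2 libraries rich in mitochondrial counts gave 25 lower and 12 higher, against 3895 and 6264 of 16360 genes.

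The difference between the responses, sgEPCR minus control, was tested as an interaction. The control response sets 24 h of UM171 against DMSO libraries labelled 72 h, while both sgEPCR groups are labelled 24 h. Genotype and labelled time therefore cannot be told apart in this difference. The difference was below 0 for 24 members and above 0 for 6, or 57.1 and 14.3% of them, against 23.1% and 21.9% of all genes. Its median was -0.69 over the members and -0.02 over all genes. The stricter limits were passed by 10 members and 7.77% of all genes. Without the 2 libraries the counts below and above 0 were 29 and 9, against 5824 and 5504 of 16360 genes. With total count scaling they were 15 and 5, against 2123 and 3146 of 15901 genes. Limma on log2(TPM + 1) gave 2 and 2 on all libraries, against 600 and 1411 genes. Limma without the 2 gave 27 and 11, against 4361 and 5769 of 16360 genes.

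**Figure D4:**
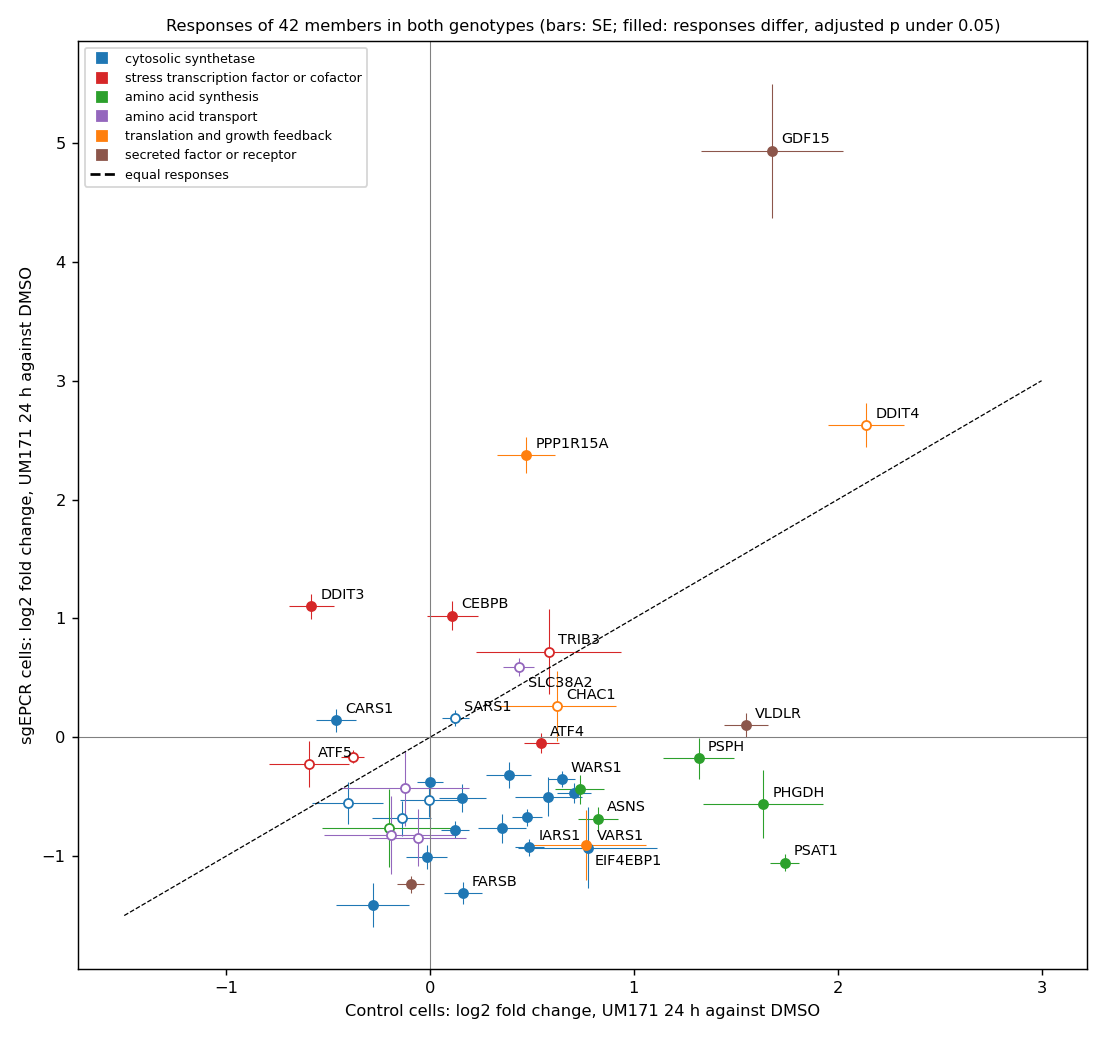
Log2 fold change of 42 members for UM171 at 24 h against DMSO in control cells (horizontal axis) and in sgEPCR cells (vertical axis), with standard errors, the line of equal responses, and filled points where the responses differed at an adjusted p under 0.05. PSAT1 (1.74 and -1.05) and PHGDH (1.63 and -0.56) lie far below the line, GDF15, PPP1R15A and DDIT3 far above it, and DDIT4 close to it.

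The serine pathway showed the widest gap. PSAT1 went from 59.2 to 199 TPM in control cells on average, and from 66.2, 166 and 157 TPM to 84.6, 48.3 and 82.9 TPM in sgEPCR cells. The response was 1.74 in control cells and -1.05 in sgEPCR cells, a difference of -2.79 (SE 0.10, adjusted p = 5.9e-08), and -2.88 without the 2 libraries. PHGDH differed by -2.20 (SE 0.41, adjusted p = 0.0013), PSPH by -1.496 and ASNS by -1.51 (SE 0.14, adjusted p = 1.2e-05), and these were -2.10, -1.65 and -1.51 without the 2 libraries. In sgEPCR cells in UM171, PHGDH stood at 74.6, 16.9 and 73.8 TPM, of which the second library is the one rich in mitochondrial counts, against 23.2, 91.2 and 87.5 TPM in DMSO, so that its sgEPCR groups overlap. The larger value in sgEPCR cells in DMSO contributes to these differences as well as the lower value in UM171. Against control cells in UM171, PSAT1, ASNS and PHGDH were lower by 1.27, 1.04 and 1.23, and over all members 23 were lower and 5 higher, where 22.2% and 20.8% of all genes were, and 5 members and 4.46% of all genes passed the stricter limits. Without the 2 libraries, 27 were lower and 7 higher, against 5868 and 5301 of 16360 genes. PSAT1, ASNS and PHGDH were then lower by 1.32, 0.97 and 0.93. With limma on log2(TPM + 1) on all libraries, 4 were lower and 2 higher, against 1206 and 783 of 15901 genes.

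ATF4 mRNA itself responded by 0.55 in control cells and by -0.05 in sgEPCR cells, a difference of -0.60 (SE 0.12, adjusted p = 0.0021), or -0.45 without the 2 libraries. Its level in sgEPCR cells was 204, 381 and 370.1 TPM in DMSO and 449, 218 and 466 TPM in UM171, and without the library rich in mitochondrial counts in each group the UM171 values were above the DMSO values. Without those 2 libraries its response in sgEPCR cells was 0.08 (adjusted p = 0.088) with edgeR and TMM, and 0.28 (adjusted p = 0.00057) with limma on log2(TPM + 1), a fit added after the data were seen. It was also above 0, without passing the test, with total count scaling on all libraries, so that its sign in these cells turned both with the libraries and with the scaling. Among the synthetases, VARS1, FARSB, IARS1, GARS1, EPRS1, FARSA, YARS1 and MARS1 differed by -1.70, -1.47, -1.41, -1.17, -1.15, -1.13, -1.12 and -1.08. Without the 2 libraries these were -1.64, -1.45, -1.40, -1.18, -1.19, -1.02, -1.12 and -1.06. CARS1 was the synthetase that passed above 0, with a difference of 0.60 (SE 0.14, adjusted p = 0.0043), being lower in control cells by 0.46, and of 0.69 without the 2 libraries. QARS1, SARS1 and HARS1 did not pass, although HARS1 passed without the 2 libraries, at -0.49 (adjusted p = 1.6e-06).

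PPP1R15A, DDIT3 and CEBPB responded more in sgEPCR cells than in control cells. PPP1R15A stood at 7.58, 16.98 and 17.1 TPM in sgEPCR cells in DMSO and at 111, 39.5 and 116 TPM in UM171, every UM171 library being above every library of the other 3 groups compared. Its response was 2.38 against 0.47 in control cells, a difference of 1.90 (SE 0.20, adjusted p = 3.3e-05), or 2.08 without the 2 libraries. DDIT3 went from 5.95, 12.04 and 11.7 TPM to 31.4, 15.5 and 29.3 TPM, a response of 1.10 against -0.58 in control cells and a difference of 1.68 (SE 0.15, adjusted p = 1.1e-05), or 1.76 without the 2 libraries. MARS1, which overlaps DDIT3, responded by -0.50 in sgEPCR cells and 0.58 in control cells, opposite in sign to DDIT3 in both. CEBPB responded by 1.02 against 0.11, a difference of 0.91 (SE 0.17, adjusted p = 0.0016), and of the same size, 0.91, without the 2 libraries.

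GDF15 had 0, 1 and 1 counts in sgEPCR cells in DMSO and 34, 9 and 41 in UM171. Its fitted difference of 3.26 depends on the prior count. As a ratio of pooled counts scaled to library totals, UM171 was 41.0 times DMSO in sgEPCR cells, with an exact 95% interval of 11.02 to 345 that covers counting error only, and control DMSO was 16.2 times sgEPCR DMSO (4.14 to 139). In UM171 the 2 genotypes had a log2 difference of -0.35 (adjusted p = 0.4), with a 95% interval of -0.98 to 0.28.

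For 4 other stress genes no difference between the genotypes passed the test. DDIT4 responded by 2.14 in control and 2.63 in sgEPCR cells, a difference of 0.49 with a 95% interval of -0.01 to 0.98. SLC38A2 responded by 0.43 and 0.59, a difference of 0.16 (-0.05 to 0.37). TRIB3 and CHAC1 had differences of 0.14 (-0.85 to 1.12) and -0.36 (-1.17 to 0.45), and these intervals still allow changes of over 1 on the log2 scale for both. Without the 2 libraries the differences were 0.47 for DDIT4, 0.19 for SLC38A2, 0.16 for TRIB3 and -0.30 for CHAC1, and those of DDIT4 and SLC38A2 then passed the test (adjusted p = 0.028 and 0.0059). The difference did not pass for ATF5, PYCR1, SLC3A2, SLC7A5 and SLC1A5 either. Without the 2 libraries it passed for each of these, at 0.50, -0.50, -0.28, -0.69 and -0.62. In that fit SLC3A2, SLC7A5, SLC1A5 and PYCR1 had responses of -0.42, -0.76, -0.82 and -0.72 in sgEPCR cells, whereas SLC38A2 had 0.62. ATF5 was at -0.10 there and did not pass. STC2 and VLDLR had differences of -1.14 and -1.45, or -1.09 and -1.34 without the 2 libraries. STC2 fell in sgEPCR cells by 1.24, from 6.66, 17.6 and 20.8 TPM to 9.02, 3.23 and 10.2 TPM.

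**Figure D5:**
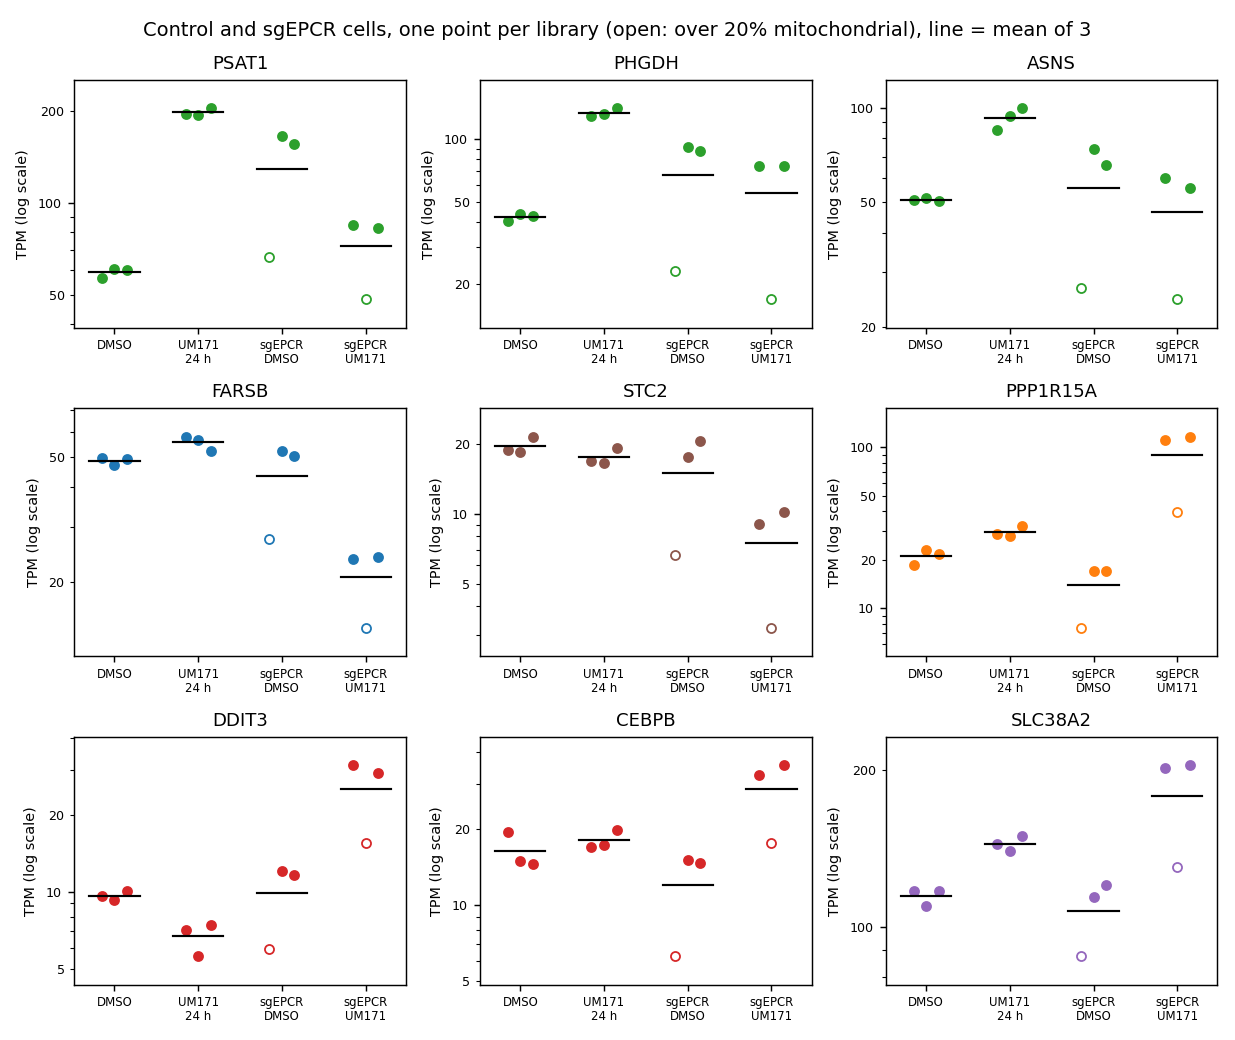
TPM (log axis) of 9 members in control and sgEPCR cells in DMSO or in UM171 for 24 h, with 1 point per library, open points for the 2 libraries over 20% mitochondrial and a line at the mean of 3. PSAT1, PHGDH and ASNS rise in control cells and not in sgEPCR cells, and PPP1R15A, DDIT3 and CEBPB are highest in sgEPCR cells in UM171.

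The lists outside the members divided in the same comparison. Among further ATF4 targets the differences reached 2.76 for ATF3 (SE 0.15, adjusted p = 4.2e-07), a factor induced early in stress, and -1.43 for SHMT2, a mitochondrial enzyme of serine use. Of 17, 6 were above 0 and 6 below, or 35.3% each, against 21.9% and 23.1% of all genes. PERK mRNA (EIF2AK3) differed by 0.60 and EIF2B3 by -1.53, the extremes of their list. Of 14 chaperone branch genes, 5 were above 0, DNAJB9 most at 2.17, and 3 below, XBP1 most at -1.34. These were 35.7 and 21.4%, the latter near the 23.1% of all genes. Of 17 mitochondrial synthetases, 6 were below 0 (35.3%) and 0 above, and EEF1E1 of the multisynthetase complex differed by -1.53. Myeloid markers differed too, CSF2RA by 1.78 and MPO by -4.38, and PECAM1 by 3.49. The 8 myeloid markers summed to 763 to 1318 TPM in sgEPCR cells in DMSO and 1289 to 1835 TPM in UM171, and the 6 other markers to 5.52 to 8.23 and 15.6 to 31.8 TPM. Between these 2 groups, 4 of the 8 were higher in UM171 and 3 lower (50 and 37.5%, against 27 and 25.1% of all genes). The part of these markers in the members' differences was not tested.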

How the data were processed

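RNA of 21 OCI-AML5 libraries (7 groups of 3) was sequenced from stranded poly(A) libraries. The authors trimmed, aligned and counted the reads, and the submitters' processing notes name CASAVA 1.8.2, Trimmomatic 0.35, STAR 2.5.1b and RSEM 1.2.28. The deposited gene tables hold RSEM expected counts, which need not be whole, and TPM, which the authors scaled to transcript length and to a fixed sum per library. The strand setting of the counting is not given in the sources used here.

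Identifiers were stripped of their version, the 45 Y pseudoautosomal entries were summed with their partners, and members were matched by symbol. The members and lists were chosen with earlier results of these data known. Expected counts were rounded and tested with edgeR 4.0.16 in R 4.3.3 (filterByExpr, TMM, quasi-likelihood test, Benjamini-Hochberg adjustment over all genes tested), with 15 libraries and 16575 genes for the time course and 12 libraries and 15901 genes for sgEPCR. Changes are log2 fold changes. A gene was called at an adjusted p under 0.05, and the stricter limits asked for a fold over 2 and an adjusted p below 0.0001. Intervals of fold changes are 95% intervals, and exact intervals of count ratios cover counting error only. All members are accounted for, and those with the largest change in each role, with ATF4, DDIT3 and ASNS, are given in full. From each other list the largest rise and fall at 6 h, at 72 h and in the difference of the responses are named, except where a result is not reported here, and other genes named beside them were chosen after their values were seen. On simulated counts, all 100 genes changed by a log2 of 1 were recovered at 72 h, but 21 of 100 in the difference of the responses, where all 100 changed by a log2 of 2 were recovered. The simulation gave every gene 1 coefficient of variation, 0.06 for the time course and 0.19 for sgEPCR, and no outlying library. In the real sgEPCR libraries the spread differs between genes and 2 libraries stand apart. These shares therefore do not measure how many real changes were missed. Alternatives were DESeq2 1.42.0, other scalings and filters, limma 3.58.1 on log2(TPM + 1) and log2(TPM + 0.1), a replicate block, leaving out each library, and leaving out the 2 libraries with over 20% mitochondrial counts.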

Additional observations from a re-analysis of the deposited data

Results flagged for a closer look

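For 30 of the 42 tested members, the test of the difference between the response to UM171 in sgEPCR cells and in control cells at 24 h (edgeR, adjusted p under 0.05) separated the responses, and their log2 differences, sgEPCR minus control, are given here in order. Of all genes, 21.9% were above 0 and 23.1% below in this test. The fit holds the 2 libraries rich in mitochondrial counts, and no explanation was tested. The control response also spans labelled times of 24 and 72 h, which the sgEPCR response does not.

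In amino acid synthesis, the difference was -2.79 for PSAT1, -2.20 for PHGDH, -1.51 for ASNS, -1.496 for PSPH and -1.17 for ALDH18A1. Among the synthetases it was -1.70 for VARS1, -1.47 for FARSB, -1.41 for IARS1, -1.17 for GARS1, -1.15 for EPRS1, -1.13 for FARSA, -1.12 for YARS1, -1.08 for MARS1, -0.995 for WARS1, -0.99 for LARS1, -0.90 for KARS1, -0.70 for TARS1, -0.67 for AARS1, -0.54 for NARS1, -0.37 for RARS1 and 0.60 for CARS1. Among the factors it was -0.60 for ATF4, 0.21 for CEBPG, 0.91 for CEBPB and 1.68 for DDIT3. It was -1.67 for EIF4EBP1 and 1.90 for PPP1R15A in feedback, and -1.45 for VLDLR, -1.14 for STC2 and 3.26 for GDF15 among secreted factors and receptors.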

How the results depend on the processing

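In all, 7587 values of single members under an alternative kept their direction and side of the threshold, 561 lost the call, 202 gained one and 42 turned in sign; the cause was not tested where none is given. Total count scaling shifted the median of all genes by 0.20 at 6 h and by -0.25 for sgEPCR against control cells in DMSO, and limma on log2(TPM + 1) by 0.13 and -0.32. The number of all genes past the test changed with the settings too. Between genotypes in DMSO, 2774 of all genes were higher in the main fit and 193 with limma on log2(TPM + 1). Groups of 3 and the spread of the sgEPCR libraries limit the precision.

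Counts of members higher and lower at 6 h were 7 and 24 with upper quartile scaling, 8 and 18 with total counts, and 8 and 17 with limma at either pseudocount. Of all 16575 genes, 6367 were higher and 3695 lower with upper quartile scaling, and 7427 and 2443 with total counts. Limma gave 5783 and 1867 of all genes at a pseudocount of 1, and 5778 and 1826 at 0.1. At 6 h, 7 were higher with at least 10 counts in every library and 2 with all 21 libraries in one fit. Of all genes, 4686 of 13388 and 3912 of 16786 were higher in these fits. Lower at 24 h were 6 with total counts and 5 with all 21 libraries, and lower at 48 h 6 with all 21. All genes lower were, in the same order, 5360 of 16575, 4131 of 16786 and 4353 of 16786. Past the stricter limits, higher and lower were 0 and 1 at 6 h, 5 and 0 at 24 h, 11 and 1 at 48 h, 20 and 2 at 72 h, 5 and 5 in sgEPCR cells under UM171, 2 and 0 between genotypes in DMSO, 2 and 3 in UM171, and 2 and 8 for the difference of the responses. For sgEPCR cells under UM171, 9 were lower with total counts and 2 with limma at either pseudocount. In the difference of the responses, 15 were lower with total counts, and limma at either pseudocount gave 2 and 2. Between genotypes in DMSO, 4 were higher with total counts, 0 with limma at either pseudocount and 5 with the replicate block, and lower were 4 with upper quartile scaling, 1 with limma on log2(TPM + 1) (ATF5), 0 with the replicate block and 6 without the 2 libraries rich in mitochondrial counts. Of all 15901 genes, the replicate block gave 618 higher and 486 lower, and upper quartile scaling 3076 lower. Between genotypes in UM171, limma gave 2 and 4 with a pseudocount of 1 and 1 and 3 with 0.1. The same fits gave 783 and 1206, and 641 and 964, of all 15901 genes. In fits added after the data were seen, without the 2 libraries rich in mitochondrial counts, limma and total counts gave 12 and 12 higher in sgEPCR cells under UM171, 7 and 8 lower between genotypes in DMSO, and 11 and 11 above 0 in the difference of the responses. Of all 16360 genes, the same fits gave 6264 and 6746, 5058 and 5776, and 5769 and 6192.

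The replicate block gave 3 higher and 11 lower between genotypes in UM171, against 932 and 1008 of all 15901 genes. Replicate numbers did not pair the libraries, since 6 of 63 same-numbered pairs correlated over 0.1 (r from -0.57 to 0.41). The block is therefore given only here. Across numbers, replicate 1 of sgEPCR cells in DMSO and replicate 2 in UM171, the 2 rich in mitochondrial counts, correlated at 0.66 in their deviations from the group means. Replicates 2 and 3 in DMSO correlated with replicates 1 and 3 in UM171 at 0.41 to 0.49. No fit paired these libraries, and the labels do not say whether they share a clone.

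Leaving out each library in turn, higher and lower ranged over 4 to 4 and 25 to 31 at 6 h, 24 to 27 and 8 to 11 at 24 h, 27 to 28 and 9 to 11 at 48 h, and 31 to 34 and 7 to 7 at 72 h. They ranged over 6 to 9 and 18 to 28 in sgEPCR cells under UM171, 12 to 24 and 2 to 3 between genotypes in DMSO, 5 to 6 and 18 to 25 between genotypes in UM171, and 5 to 6 and 23 to 25 for the difference. Between genotypes in DMSO, 13, 12 and 12 were higher without DMSO replicate 1, 2 and 3, and 13 without sgEPCR DMSO replicate 3.

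Signs turned at 6 h with total counts for QARS1 (0.008), RARS1 (0.0818), SARS1 (0.0684), ASNS (0.18) and STC2 (0.0726). With limma they turned for RARS1 (0.059 and 0.0596 at pseudocounts 1 and 0.1), SARS1 (0.0656 and 0.0663) and ASNS (0.24 and 0.25). In sgEPCR cells under UM171, CEBPG was 0.0012 with total counts, 0.10 and 0.10 with limma and 0.0177 with limma without the 2 libraries, and ATF4 was 0.28 with limma and 0.22 with total counts without them. Between genotypes in DMSO, FARSB was -0.0064 with total counts and TRIB3 0.21 without the 2 libraries. With limma at pseudocounts 1 and 0.1, EPRS1 was -0.19 and -0.19, FARSB -0.22 and -0.22, IARS1 -0.0304 and -0.0314, KARS1 -0.16 and -0.17, LARS1 -0.40 and -0.40, YARS1 -0.20 and -0.21, DDIT3 -0.0251 and -0.0342, ASNS -0.0107 and -0.0138, ALDH18A1 -0.15 and -0.15, and SLC38A2 -0.11 and -0.11, and without the 2 libraries LARS1 was -0.0086. The difference of the responses of RARS1 was 0.0054 and 0.0064 with limma.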
